A study of Mus musculus with 8 samples.

Results

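The corticosteroid receptors and the corticotropin-releasing hormone (CRH) system are described here by 7 genes: *Nr3c1*, *Nr3c2*, *Hsd11b1*, *Crh*, *Crhr1*, *Crhr2* and *Crhbp*. The genes were listed by symbol, and every array probe that the RefSeq accession of its design ties to 1 of these symbols was taken. This gave 9 probes, with *Nr3c1* and *Crhr1* measured by a brighter and a dimmer probe each, among 32599 probes and 15090 named genes that were bright enough to test. The hippocampus is a main brain target of corticosteroids. Corticosterone enters cells freely and binds the mineralocorticoid receptor (*Nr3c2*) at low hormone levels and the glucocorticoid receptor (*Nr3c1*) as levels climb, and both receptors then act in the nucleus as transcription factors. The enzyme encoded by *Hsd11b1* regenerates active corticosterone from its inert form inside the cell. CRH, best known as the hypothalamic peptide that starts the pituitary-adrenal stress response, is also made by hippocampal interneurons, acts through 2 receptors coupled to cyclic AMP (*Crhr1* and *Crhr2*), and is sequestered by a binding protein (*Crhbp*).

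The tissue was the whole hippocampus of adult Muta Mouse males, a transgenic strain that carries a bacterial reporter gene for mutation assays, 9 weeks old by the study's methods. Of the 8 mice, 4 control mice received the olive oil vehicle and 4 BaP mice received benzo[*a*]pyrene, a polycyclic aromatic hydrocarbon that activates the aryl hydrocarbon receptor (AHR), at 70 mg/kg bw per day. Both were given by oral gavage on 3 days, and tissue was taken 24 h after the final dose. Each mouse had its own 2-colour array, with its hippocampal RNA in Cy5 and universal mouse reference RNA in Cy3, so p-values measure the spread between mice. For 4 mice, control 3, control 4, BaP 3 and BaP 4, the sample title and the source name disagree on the treatment. The sample numbers in the labels run with the titles. Groups follow the titles, and differences are also given for the 4 mice whose labels agree (slide row 1: control 1, control 2, BaP 1 and BaP 2), for the 4 in conflict (slide row 2), and for groups set by source name.

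All 8 arrays lay on 1 slide, had 56.6% to 67.4% of 59305 spots well above background in Cy5 and held no saturated spot, while control 1 had 1483 outlier spots against 310 to 371 on the others. Across all 32599 tested probes, 3 passed an adjusted p of 0.05 together with a 1.5-fold change (0.0092%), among them those of the red blood cell genes *Hbb-bs* (-1.9 on the log2 scale) and *Alas2* (-1.05). Markers of excitatory neurons averaged 4.62 to 5.04 (log2 ratio to the reference) over the 8 mice. Of 6 genes of the hypothalamus, where most CRH neurons lie, *Sim1* and *Otp* were not well above background, while *Agrp*, *Hcrt*, *Pmch* and *Trh* were bright enough to test and together averaged -0.06 to 0.36. All 5 red blood cell genes examined were lower in BaP mice, with list means of 4.62 to 4.84 in control and 3.54 to 3.9 in BaP mice. Their part in the results below was not tested.

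None of the 7 genes differed between BaP and control mice past the threshold. Of the 7, 3 were higher and 4 lower at the brightest probe, the median log2 fold change was -0.0079, and the lowest adjusted p of their 9 probes was 0.642 (limma, Benjamini-Hochberg over all tested probes). The split depended on the normalisation: 6 of the 7 were higher when arrays were centred on their median without loess, a setting that moved the median of all genes to 0.21, and 6 with the authors' table, where their median was 0.019. At an unadjusted p of 0.05 or less, 0 of 9 probes were counted, against 8.77% of all tested probes. No probe separated the groups: 0 of 9 had BaP and control mice without overlap, against 5.06% of all tested probes. That share was counted with groups by title and all 8 mice. No such share is given for groups by source name or with a mouse left out, so separations named below for those settings have no background beside them. All 9 probes were well above background in Cy5 on all 8 arrays, so low signal in the hippocampus did not keep any gene out of the test. Exact permutation tests on single probes were 2-sided throughout, and with 4 mice against 4 the smallest p they can give is 0.0286.

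**Figure D1:**
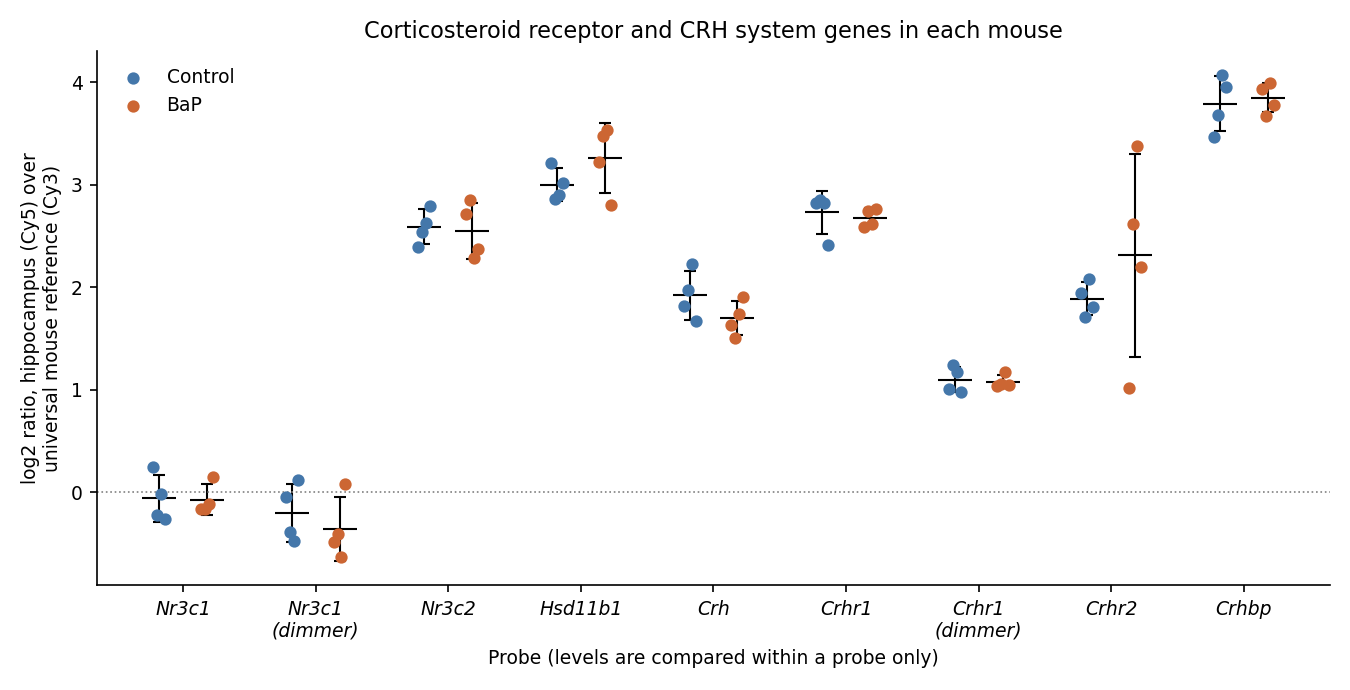
Each point is the log2 ratio of hippocampal to reference RNA in 1 mouse (blue, control, and orange, BaP, 4 each) for the 9 probes of the 7 genes, with black bars for the group mean and SD. The groups overlap at every probe, *Nr3c1* lies near 0, and *Crhr2* spreads from 1.02 to 3.38 among BaP mice.

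**Figure D2:**
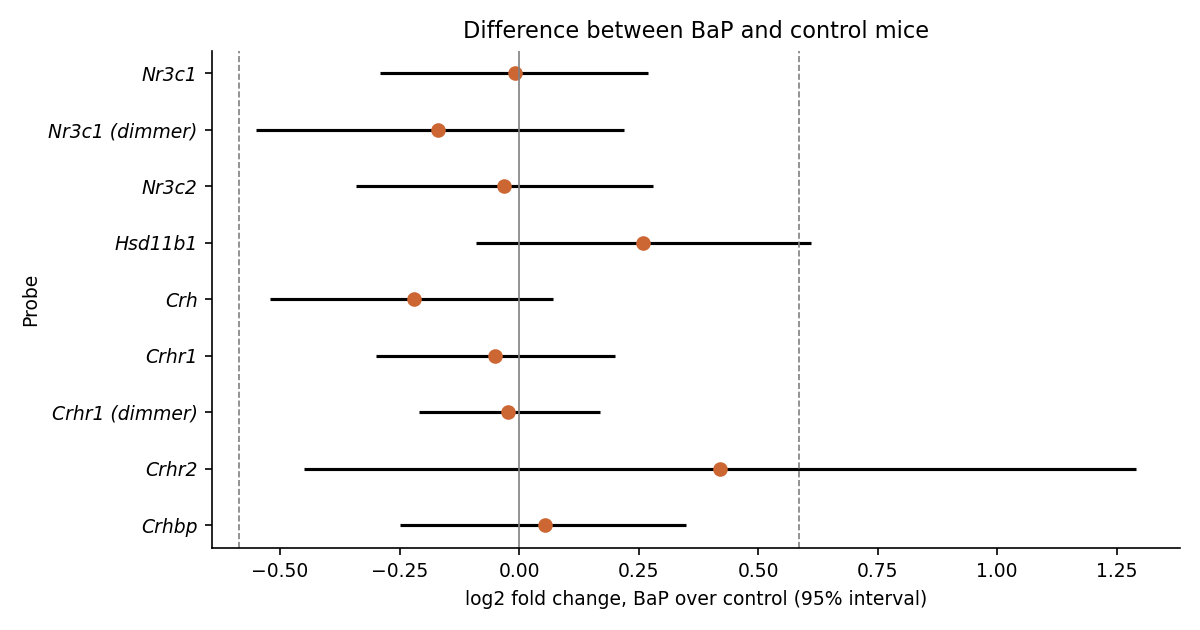
Points are log2 fold changes of BaP over control for the 9 probes, horizontal bars are 95% intervals from the limma fit, and dashed lines mark a 1.5-fold change in either direction. All 9 intervals include 0, and only those of *Hsd11b1* and *Crhr2* extend past 1.5-fold.

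The AHR binds DNA at xenobiotic response elements, whose core is GCGTG, or CACGC on the other strand. Promoters were looked at because BaP activates this receptor, and the stretches that hold the core are shown so that they can be read beside the values of their genes. RefSeq promoter sequences (GRCm38.p6) were held for 5 of the 7 genes. In the 250 bases before the start of the gene, the core occurred 1 time each in *Nr3c2*, *Hsd11b1* and *Crhbp*, at 213, 111 and 55 bases before the start, and 0 times in *Crhr1* and *Crhr2*. Among all 32851 promoters of that table, 28.2% hold the core in the same window. The 55 bases around each core read as follows, on the strand of the gene, with the core in capitals.
Nr3c2, chr8:76902092-76902146, plus strand: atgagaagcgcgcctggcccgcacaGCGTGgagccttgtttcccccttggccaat
Hsd11b1, chr1:193242442-193242496, minus strand: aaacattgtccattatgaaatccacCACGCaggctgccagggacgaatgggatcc
Crhbp, chr13:95444857-95444911, minus strand: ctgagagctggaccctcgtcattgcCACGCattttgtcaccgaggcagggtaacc
A search of the same windows for AGAACA (or TGTTCT), the motif within a glucocorticoid response element that a single receptor molecule contacts, found it in 0 of the 5 promoters and in 16.1% of all promoters. A match describes the letters of the window only, and no binding was measured.

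*Nr3c1*, the glucocorticoid receptor, lay close to the reference, at 0.956-fold on average. At its bright probe the log2 ratios were 0.25, -0.22, -0.02 and -0.26 in control 1 to 4 and -0.16, -0.16, -0.11 and 0.15 in BaP 1 to 4. The BaP values lay inside the control range, and the log2 fold change was -0.0079 (SE 0.13, adjusted p = 0.991 by limma, exact permutation p = 0.943). The 95% interval of the fold change ran from 0.819 to 1.21, so a difference of 1.5-fold lay outside it in either direction. At the dimmer probe the ratios were -0.05, -0.39, -0.47 and 0.12 in control and -0.48, -0.41, -0.63 and 0.08 in BaP mice. This probe also overlapped, with a log2 fold change of -0.17 (SE 0.17, adjusted p = 0.791 by limma, exact permutation p = 0.4). In slide row 1 alone the bright probe gave -0.17, in row 2 alone 0.16, and with groups by source name -0.16.

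*Nr3c2*, the mineralocorticoid receptor, stood 5.94-fold above the reference on average, a ratio that includes any dye effect because no dyes were swapped. The log2 ratios were 2.39, 2.54, 2.63 and 2.79 in control 1 to 4 and 2.71, 2.85, 2.29 and 2.37 in BaP 1 to 4. The highest and the lowest mouse were both BaP mice, and the log2 fold change was -0.032 (SE 0.14, adjusted p = 0.964 by limma, exact permutation p = 0.829). The interval of the fold ran from a log2 of -0.34 to 0.28. The sign differed with the labels used: BaP mice were higher by 0.31 in slide row 1 and lower in row 2, at -0.38. With groups by source name the difference was 0.35 and the ranges of 2.29 to 2.54 and 2.63 to 2.85 did not touch. The smallest adjusted p of *Nr3c2* over all 25 alternatives was 0.563.

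*Hsd11b1*, which makes active corticosterone within the cell, had the ratio best supported by repeated measurement, since its probe is printed 10 times on each array. Its log2 ratios were 3.21, 2.86, 2.9 and 3.02 in control 1 to 4 and 3.22, 3.48, 3.53 and 2.8 in BaP 1 to 4, an average of 8.74-fold over the reference. Of the BaP mice, 3 were above every control and BaP 4 had the lowest mean of all. The log2 fold change was 0.26 (SE 0.16, adjusted p = 0.647 by limma, exact permutation p = 0.229), with a 95% interval of the fold from 0.941 to 1.53. Between 7 and 10 spots per array were free of outlier flags, and the SD among spots of 1 array was 0.08 to 0.14. The SD between mice of a group was 0.26. The spots of BaP 4 ran from 2.64 to 2.98, a range that holds the means of control 2 and control 3. Without BaP 4 the difference was 0.41 and the groups did not overlap, although the lowest BaP mouse (3.22) and the highest control (3.21) were then closer than the SD of their spots. The direction was the same in both slide rows, at 0.31 and 0.21, and the difference was 0.053 by source name.

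**Figure D3:**
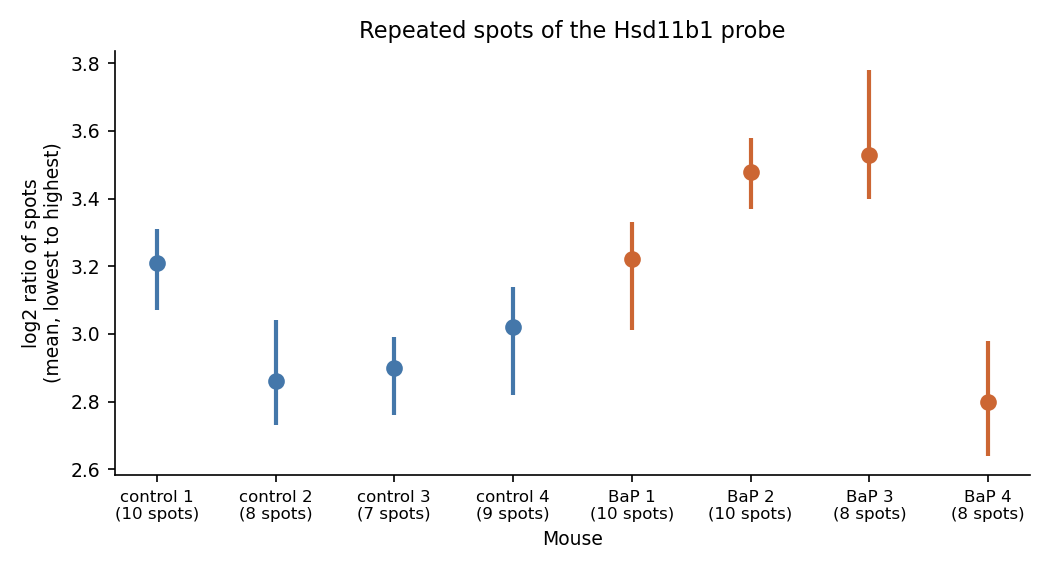
For each mouse (x axis) the point is the mean log2 ratio of the *Hsd11b1* spots used, 7 to 10 of 10 per array, and the line runs from the lowest to the highest spot (blue, control, and orange, BaP). BaP 2 and BaP 3 lie at 3.48 and 3.53 with spots above those of every control, and BaP 4 lies at 2.8.

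Beside these values, the mean of 5 genes that mark the CA2 field of the hippocampus (*Amigo2*, *Map3k15*, *Rgs14*, *Pcp4* and *Cacng5*) was 2.61, 2.36, 2.44 and 2.62 in control 1 to 4 and 2.66, 3.08, 3.08 and 2.36 in BaP 1 to 4. BaP 2 and BaP 3 were the highest and BaP 4 among the lowest, as for *Hsd11b1*. This order was not particular to CA2, since BaP 2 and BaP 3 were also the highest for dentate granule cell genes (2.75 and 2.89), oligodendrocyte genes (4.3 and 4.09) and choroid plexus genes (4.61 and 4.95). Of these 5 genes 4 were higher in BaP mice (3 with the Feature Extraction ratio), at a median of 0.36 on the log2 scale, and the list means overlapped, with 2.36 to 2.62 in control and 2.36 to 3.08 in BaP mice. The part of CA2 tissue in the *Hsd11b1* values was not tested. In these bulk samples fewer or more cells of a type and less or more RNA per cell cannot be told apart.

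*Crh* itself was detected in every hippocampus at low signal. Its Cy5 spot medians were 162 to 289 over a local background of 66 to 73, and the reference channel was not well above background on any array (0 of 8), so its ratio is no measure of fold over the reference. The log2 ratios were 1.82, 1.97, 2.23 and 1.67 in control 1 to 4 and 1.63, 1.51, 1.74 and 1.91 in BaP 1 to 4. BaP 1 and BaP 2 were below every control, but BaP 3 and BaP 4 lay within the control range. The log2 fold change was -0.22 (SE 0.13, adjusted p = 0.642 by limma, exact permutation p = 0.2), with a 95% interval from -0.52 to 0.07. The difference was -0.33 and -0.12 in slide rows 1 and 2, -0.16 in the Cy5 channel alone and -0.1 with groups by source name.

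*Crhbp*, which binds CRH and keeps it from its receptors, stood at log2 ratios of 3.47, 3.68, 4.07 and 3.95 in control 1 to 4 and 3.93, 3.67, 3.99 and 3.78 in BaP 1 to 4. All BaP mice lay inside the control range. The log2 fold change was 0.054 (SE 0.14, adjusted p = 0.93 by limma, exact permutation p = 0.771), with a 95% interval from -0.25 to 0.35. Its reference signal was well above background on 2 of 8 arrays only. BaP mice were higher in slide row 1 (0.23) and lower in row 2 (-0.12), and the difference was 0.18 with groups by source name. Both *Crh* and *Crhbp* are known from interneurons, and the mean of 10 GABA interneuron genes was 3.64, 3.76, 4.01 and 3.98 in control 1 to 4 and 3.84, 3.7, 3.82 and 3.8 in BaP 1 to 4. For *Crhbp* as for this list, control 1 was the lowest and control 3 the highest of the 8 mice. The same held for the mean of the list of the CRH, POMC and vasopressin axis (1.92 and 2.29) described below. *Crh* itself was lowest in BaP 2. In the list of CRH receptor signalling, also below, control 3 was the highest (2.2). The mean of control 1 there (1.79) lacks *Adcy2* and *Rgs4*, which had no value in that mouse, so its rank is not read. The part of interneuron content in the *Crhbp* values was not tested.

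*Crhr1*, the main CRH receptor of forebrain neurons, gave a narrow range in all mice but 1. The bright probe read 2.82, 2.85, 2.82 and 2.41 in control 1 to 4 and 2.59, 2.74, 2.62 and 2.76 in BaP 1 to 4. BaP mice lay below 3 of the controls and above control 4. The log2 fold change was -0.05 (SE 0.11, adjusted p = 0.917 by limma, exact permutation p = 0.743), with a 95% interval from -0.3 to 0.2. Without control 4 it was -0.16, and BaP mice (2.59 to 2.76) no longer overlapped with the controls (2.82 to 2.85). The dimmer probe did not repeat that order, with 1.01, 1.24, 1.17 and 0.98 in control and 1.04, 1.06, 1.17 and 1.05 in BaP mice. Its log2 fold change was -0.024 (SE 0.09, adjusted p = 0.955 by limma, exact permutation p = 0.8), and its reference signal was not well above background on any array. At the bright probe slide row 1 gave -0.17, row 2 gave 0.073 and groups by source name gave -0.12.

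*Crhr2*, the receptor that prefers urocortins and is also known from choroid plexus, varied far more between BaP mice than between controls. The log2 ratios were 1.94, 1.71, 2.08 and 1.81 in control 1 to 4 and 1.02, 2.62, 3.38 and 2.2 in BaP 1 to 4. BaP 1 was the lowest of the 8 mice and the other 3 BaP mice were above every control. The SD was 0.16 in control and 0.99 in BaP mice, and the SD between mice of a group, 0.71, compared with 0.1 to 0.29 at the other 8 probes. The spread lay in the hippocampal channel, where spot medians ran from 292 to 1900, while the reference channel stayed between 109 and 174. The log2 fold change was 0.42 (SE 0.39, adjusted p = 0.765 by limma, exact permutation p = 0.457), and the 95% interval of the fold, from 0.733 to 2.44, is too wide to bound a 1.5-fold increase. BaP mice differed by -0.0079 in slide row 1 and by 0.85 in row 2, and by -0.43 with groups by source name. Single mice set its size: without BaP 3 the difference was 0.063, and without BaP 1 it was 0.85 and the groups did not overlap (1.71 to 2.08 in control and 2.2 to 3.38 in BaP mice).

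Choroid plexus, the ventricular tissue that can stay attached to a dissected hippocampus, varied in the same BaP mice. The mean of 11 choroid plexus genes, among them *Ttr*, *Kl*, *Kcnj13* and *Folr1*, was 3.53, 2.47, 3.94 and 2.05 in control 1 to 4 and 1.53, 4.61, 4.95 and 4.07 in BaP 1 to 4. BaP 1 was the lowest of all mice and BaP 3, BaP 2 and BaP 4 followed each other from the highest down, the same order as *Crhr2* in those mice. Control 3 was the highest and control 1 the next highest of the controls for both, whereas control 2 and control 4 changed places. All 11 genes had a higher mean in the BaP group (10 with the Feature Extraction ratio), at a median of 0.83 on the log2 scale, and none separated the groups. *Ttr*, the defining gene of this tissue, ran from 5.92 in BaP 1 to 7.75 in BaP 4, so it was far above the reference in every mouse. The part of choroid plexus in the *Crhr2* values was not tested.

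**Figure D4:**
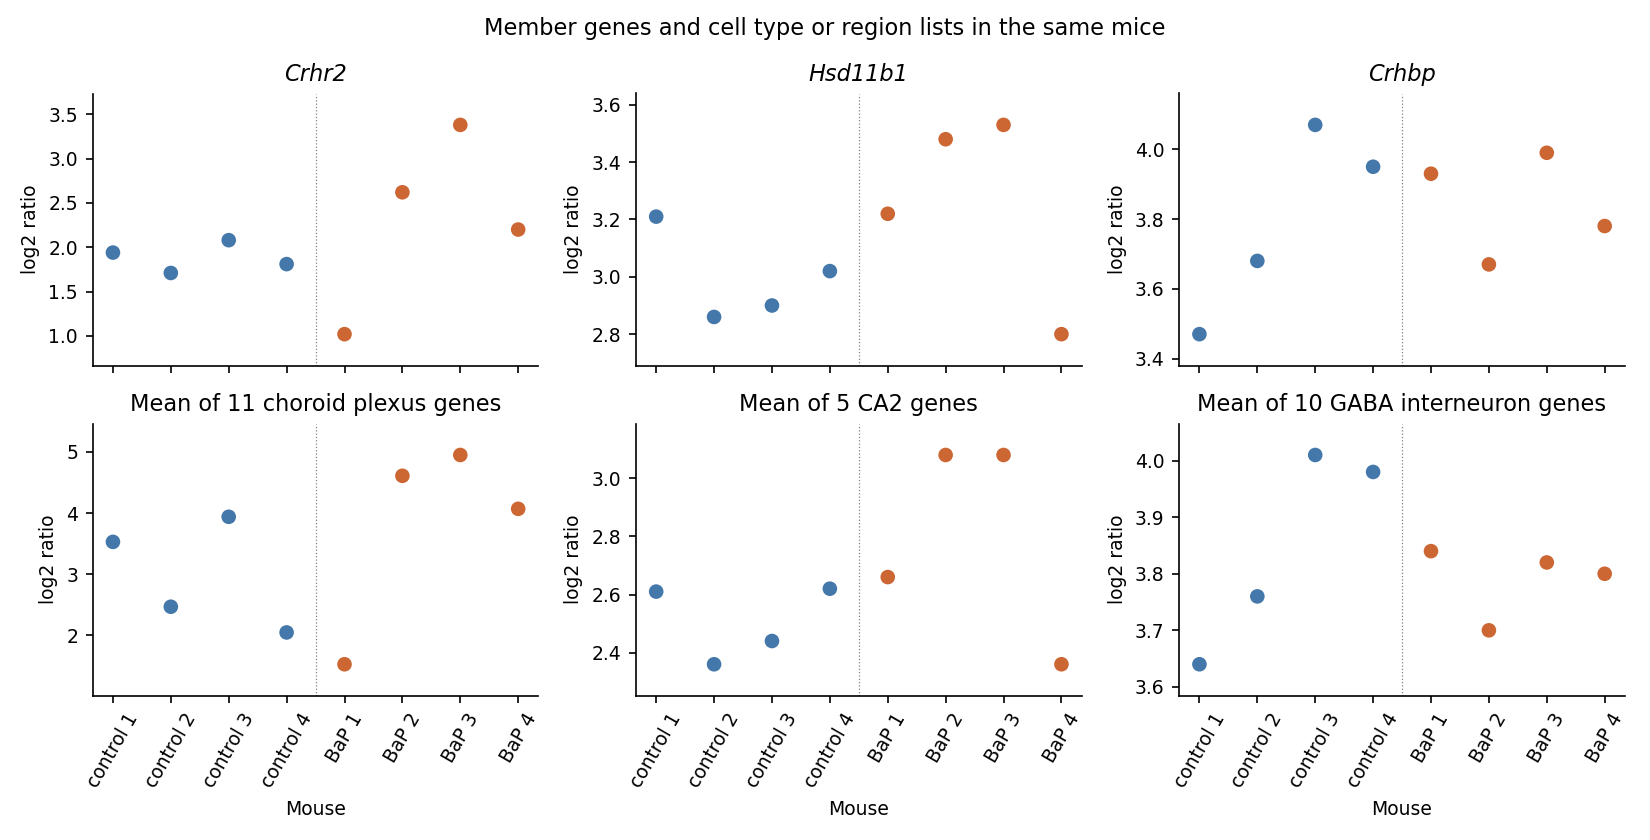
Log2 ratios per mouse (x axis, blue, control, and orange, BaP) of *Crhr2*, *Hsd11b1* and *Crhbp* in the upper row, and the mean log2 ratio of choroid plexus, CA2 and GABA interneuron genes in the lower row, each panel on its own scale. BaP 1 is lowest for both *Crhr2* (1.02) and the choroid plexus genes (1.53), and BaP 4 is lowest for *Hsd11b1* (2.8).

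The receptors work with chaperones that hold them ready for hormone and with co-regulators that carry their signal to the transcription machinery. Of 20 such genes 19 were tested, 8 were higher and 11 lower in BaP mice, none passed the threshold, and the median log2 fold change was -0.059. *Nrip1*, a co-repressor of nuclear receptors, was the only gene of this list whose BaP values lay wholly above the controls, where 2.72% of all tested genes did so, with a log2 fold change of 0.17. *Dnajb1*, an HSP40 co-chaperone, was the only one wholly below, where 2.56% of all tested genes did so, at -0.41 (control 0.68 to 0.98, BaP 0.35 to 0.39). *Fkbp5*, the co-chaperone that dampens hormone binding and is itself induced by glucocorticoids, had the largest increase of the list at 0.26 (adjusted p = 0.554, limma), and its groups overlapped. Of the 19 genes 7 were higher in slide row 1, 9 in row 2 and 9 with groups by source name, where neither *Nrip1* nor *Dnajb1* separated the groups.

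Of 16 genes for steroid supply and for related steroid receptors 11 were tested, 6 were higher and 5 lower, none passed the threshold, and the median was 0.0012. The list means were 0.25 to 0.32 in control and 0.35 to 0.4 in BaP mice. BaP 3 had no value for *Cyp11a1*, so its mean leaves that gene out and the gap is not read as a separation. The difference of 0.086 sat mainly in *Srd5a1* and in *Akr1c18* (0.49), the latter named after its values were seen. *Srd5a1*, which reduces corticosterone and other steroids, was the largest increase and the only gene of this list without overlap, where 2.72% of all tested genes were wholly higher. Its log2 ratios were -0.41, -0.43, -0.82 and -0.75 in control and 0.07, 0.2, 0.22 and -0.39 in BaP mice, a log2 fold change of 0.63 that did not pass (adjusted p = 0.448, limma). *Esr1*, an oestrogen receptor, had the largest decrease at -0.14. Of the 11 genes 7 were higher in slide row 1, 6 in row 2 and 4 with groups by source name (median -0.03), where *Srd5a1* no longer separated the groups. *Hsd11b2*, the enzyme that inactivates corticosterone, and *Serpina6*, the corticosteroid carrier of plasma, were among 5 genes not well above background.

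The peptides and receptors around CRH showed no gene whose groups separated. Among all tested genes 2.72% were wholly higher and 2.56% wholly lower, so lists of this size would hold few or none. In the list of the CRH family, POMC and vasopressin axis, 10 of 16 genes were tested, 3 were higher and 7 lower, and the median was -0.075. The count turned with the labels and the slide row, with 6 of 10 higher in row 1, 1 of 10 in row 2 and 10 of 10 with groups by source name (median 0.12). The CRH-related ligands *Ucn*, *Ucn2* and *Ucn3* were not well above background, so no ligand of *Crhr2* other than CRH had a usable value. *Avpr1b*, a vasopressin receptor, had the largest increase at 0.48 (adjusted p = 0.623, limma), and *Adcyap1r1*, the PACAP receptor, had the largest decrease at -0.41 (adjusted p = 0.523, limma). Downstream of the CRH receptors, all 20 listed genes of cyclic AMP signalling and receptor desensitization were tested, 5 were higher and 15 lower, none separated the groups, and the median was -0.088, against 12 of 20 higher (median 0.045) by source name. *Adcy9*, an adenylyl cyclase, had the largest increase at 0.17, and *Grk3*, a kinase that desensitizes CRH receptors, the largest decrease at -0.47 (adjusted p = 0.533, limma). Centring without loess raised the number higher to 18 of 19 chaperones and co-regulators, 9 of 11 steroid genes, 6 of 10 of the CRH, POMC and vasopressin axis and 17 of 20 signalling genes. Among all 15090 tested genes 49.9% were higher in BaP mice and the median was -0.00023.

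Genes that corticosteroids induce were mostly higher in BaP mice, without passing the test. Of 23 such genes, all tested, 17 were higher (49.9% of all tested genes were), the median was 0.26, 7 had BaP values wholly above the controls (2.72% of all tested genes did), and 0 passed the threshold (lowest adjusted p = 0.147, *Nfkbia*, limma). Several of these genes were already known to be higher in these data when the list was written, so its direction is not independent evidence. *Sgk1*, a kinase induced by both receptors, was largest at 1.27, with log2 ratios of -0.16, -0.39, 0.47 and 0.37 in control and 1.18, 1.45, 1.8 and 0.96 in BaP mice. *Plin4* (0.87), *Nfkbia* (0.78), *Hif3a* (0.69) and *Mt2* (0.66) came next, and *Klf9* (0.4) and *Per1* (0.37), named after their values were seen, completed the 7. *Angptl4* had the largest decrease at -0.49, and *Lcn2*, also named after its values were seen, was the only gene of this list wholly below the controls (2.56% of all tested genes were), at -0.21. In slide row 1, 19 of the 23 genes were higher with a median of 0.29, in row 2, 15 with a median of 0.17, and by source name 18 with a median of 0.061 and 1 gene without overlap, *Zbtb16*, which is none of the 7. The transcripts of *Nr3c1* and *Nr3c2* in the same mice differed by -0.0079 and -0.032.

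**Figure D5:**
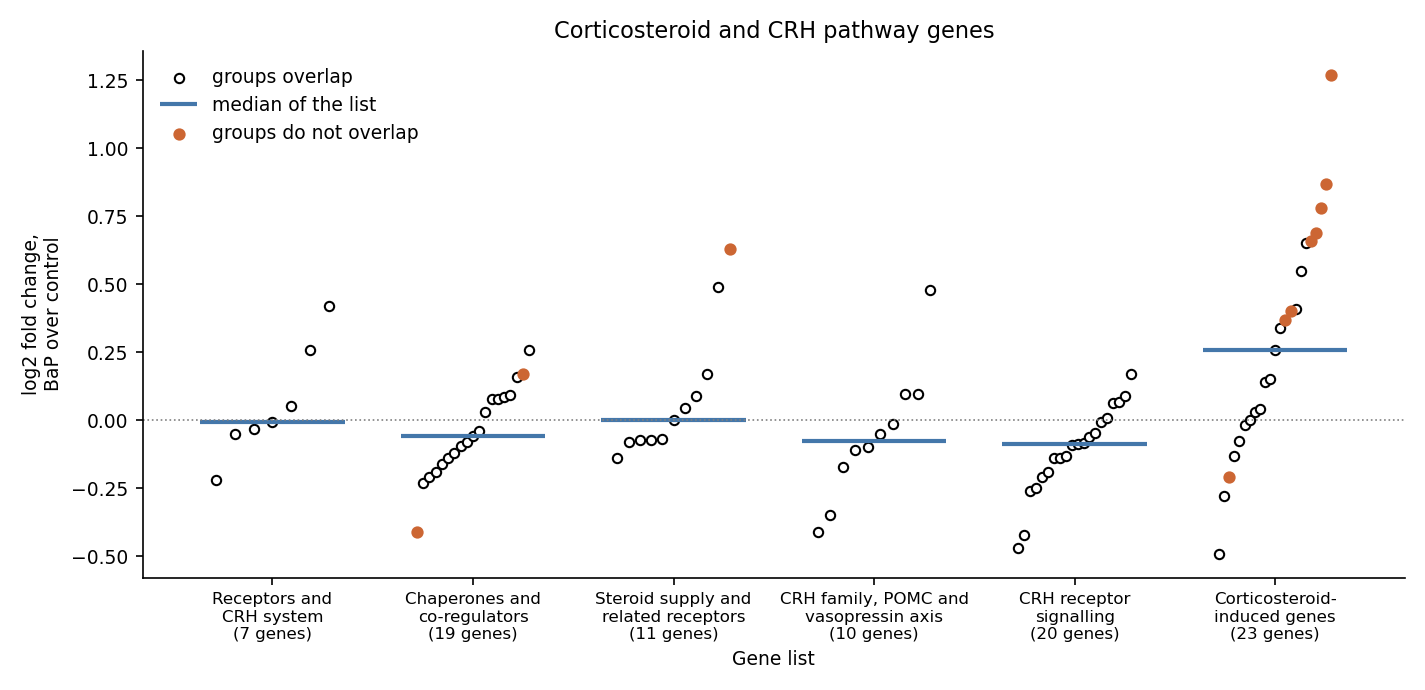
Each point is the log2 fold change of BaP over control of 1 gene, in 6 lists of 7 to 23 tested genes, filled where the 4 BaP and 4 control mice do not overlap, with a blue line at the median of each list. The receptors and CRH system and 4 other lists have medians from -0.088 to 0.0012, and the corticosteroid-induced genes have a median of 0.26.

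Finally, the genes whose ratios over the 8 mice were most like those of each of the 7 were listed among 14877 named genes with a value on every array. These are the highest Pearson r values of a large search over 8 arrays that share a slide and a reference, and are a description only. For *Nr3c1* they were *Asap1* (r = 0.964), *Nfic* and *Pdzrn3*, and for *Nr3c2* they were *Gpd1* (r = 0.948), *Vps52* and *Qsox2*. *Gpd1*, a glycerol-3-phosphate dehydrogenase, also ranked at the top for *Nr3c2* with the group means removed (r = 0.982). For *Hsd11b1* they were *Anxa11* (r = 0.99), the vasopressin receptor *Avpr1b* (r = 0.981) and *Cpm*, and *Anxa11* remained at the top with the group means removed (r = 0.995). *Crh* was followed most closely by *Pnpla1*, *Tspan14* (both r = 0.97) and *Cytl1*, and *Crhbp* by *Mpp2*, *Ube2j2* (both r = 0.94) and *Tanc2*. *Crhr1* was matched by *Creg2* (r = 0.995), *Gpat2* and *Slc10a1*, and *Crhr2* by *Cish* (r = 0.983), *Plxnb2* and *Hfe* (both r = 0.977).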

How the data were processed

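Hippocampal RNA (Cy5) of 4 control and 4 BaP mice was hybridised against universal mouse reference RNA (Cy3) on 8 Agilent arrays of 55681 probes, without dye swaps. The authors scanned the arrays and deposited Feature Extraction (11.0.1.1) files, whose spot medians are intensity values, together with a log10 ratio of red over green. The authors also deposited a table of log2 ratios, made by LOWESS per the study's methods. Against that table the ratios computed here had r of 0.998 to 0.999 and a slope of 1, so its scale is log2 of Cy5 over Cy3, and its column medians were -0.034 to -0.046.

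Spot medians were corrected by normexp (offset 50), control spots were then removed, spots with an outlier flag in either channel were set to missing, ratios were normalised by loess within each array, and spots of a probe were averaged (limma 3.58.1, R 4.3.3). Tests were run on probes whose Cy5 signal was well above background on 4 or more arrays and that had 2 or more values per group, with lmFit and eBayes and Benjamini-Hochberg adjustment. A probe passed at an adjusted p of 0.05 or less together with at least 1.5-fold. Single probes were also compared by an exact permutation test over all 70 assignments. Precision is limited by there being 8 arrays. Of 28685 probes with a RefSeq accession, 27235 (94.9%) matched 1 gene symbol. A gene is represented by its brightest tested probe, and other probes of the 7 genes are given beside it.

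The 7 genes and the gene lists were chosen with earlier results of these data known. Named from each pathway list are the genes without overlap (at most 5 by size) and the largest increase and decrease, and for each of the 7 genes the 3 genes most like it. Alternatives covered background correction, normalisation, source of the ratio, channel, filters, test, blocks, slide row, labels and leaving out each mouse. Coordinates are those of the RefSeq promoter table, not of the array files.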

Additional observations from a re-analysis of the deposited data

Results flagged for a closer look

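In groups of 4 mice, a mouse was picked out where its gap to the nearest other mouse, as a share of the range of the group, was above Dixon's 95% limit. Among 58 groups examined (9 probes of the 7 genes and 20 list means, control and BaP each) 4 had such a mouse, where chance would give about 2.9.

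*Nr3c1* at its bright probe was 0.15 in BaP 4 and -0.16 to -0.11 in the other BaP mice (share 0.848). *Crhr1* at its bright probe was 2.41 in control 4 and 2.82 to 2.85 in the other controls (share 0.936), and without that mouse the BaP values were wholly below the controls. The dimmer *Crhr1* probe was 1.17 in BaP 3 and 1.04 to 1.06 in the other BaP mice (share 0.836), and it did not set control 4 apart. The mean of 5 thalamus genes was -1.32 in BaP 1 and -0.94 to -0.9 in the other BaP mice (share 0.92), the same mouse that was lowest for *Crhr2* and the choroid plexus genes.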

How the results depend on the processing

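The 7 genes gave 0 past the threshold under every alternative run, and the lowest adjusted p among 227 values of their probes was 0.226 (*Hsd11b1*). *Hsd11b1* was higher (0.053 to 0.49) and *Crh* lower (-0.33 to -0.1) under all 25 alternatives. Signs turned as follows, and the causes were not tested. Centring each array on its median without loess moved the median of all genes to 0.21, and gave *Nr3c1* 0.26 (dimmer probe 0.033), *Nr3c2* 0.12 and *Crhr1* 0.14 (dimmer probe 0.0035). Without background subtraction *Nr3c1* was 0.00041, *Nr3c2* 0.0068 and the dimmer *Crhr1* probe 0.022, and that probe was 0.13 with plain subtraction, 0.021 with an offset of 16 and 0.51 with the Feature Extraction ratio. The authors' table gave *Nr3c1* 0.0035, *Nr3c2* 0.019 and *Crhr1* 0.0066 (dimmer probe 0.025), and Cy5 alone gave *Nr3c1* 0.02 and *Nr3c2* 0.042. Slide row 1 gave *Nr3c2* 0.31 and *Crhr2* -0.0079. Slide row 2 gave *Nr3c1* 0.16, *Crhr1* 0.073 (dimmer probe 0.03) and *Crhbp* -0.12. Groups by source name gave *Nr3c2* 0.35 and *Crhr2* -0.43. Leaving out each mouse gave *Nr3c1* -0.082 to 0.096, *Nr3c2* -0.13 to 0.056, the dimmer *Crhr1* probe -0.063 to 0.022 and *Crhbp* -0.052 to 0.15.

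Probes past the threshold, 3 of all tested, numbered 6 with Cy5 alone or with an intensity trend and robust variances, 5 with no filter, and 0 with plain subtraction, the Feature Extraction ratio, the gene-wise F test, either slide row alone or groups by source name. Leaving out each mouse gave 1 to 3, with 1 without control 1, control 3, control 4 or BaP 2. Probes of the 7 genes without overlap, 0 in all mice, numbered 1 by source name (*Nr3c2*) and 0 to 1 on leaving out each mouse (*Crhr1* without control 4, *Crhr2* without BaP 1 and *Hsd11b1* without BaP 4). In each of these genes the mouse left out was the 1 that had made the groups overlap. No share of all tested probes is given for these settings. Corticosteroid-induced genes higher in BaP mice numbered 15 to 22 of 23. Medians of the other pathway lists took both signs, from -0.2 to 0.22.

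Mice with the same number did not vary together (r of -0.354, 0.031, -0.007 and -0.007), and the main test did not pair them. With 4 mice per group these values cannot settle whether the numbers carry a pairing. With the replicate block 3 probes and 0 of the 7 genes passed, and *Hsd11b1* was 0.26 (adjusted p = 0.728, limma). Signal limits *Crh*, *Crhbp* and the dimmer *Crhr1* probe, whose reference channel was dim, and *Crhr2* is limited by its spread between BaP mice.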

Other observations

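Region and cell type lists gave the following values, as medians of log2 fold changes of BaP over control. Dentate granule cell genes (*Prox1*, *C1ql2*, *Dsp*, *Dock10* and *Pdzd2*) were higher in BaP mice for 5 of 5 (3 with the Feature Extraction ratio), with a median of 0.35. CA1 genes were higher for 3 of 5 (median 0.27), microglia genes for 3 of 5 (0.044) and oligodendrocyte genes for 4 of 5 (0.091). Cortex and amygdala genes were higher for 1 of 7 (median -0.19), hypothalamus genes for 1 of 4 (-0.059) and red blood cell genes for 0 of 5 (-0.94). These medians kept their sign under the 4 other scalings. The sign of the median turned under at least 1 of them for CA3 (-0.19), thalamus (-0.061), excitatory neurons (-0.055), GABA interneurons (-0.061), astrocytes (-0.048) and endothelium (0.006). Beside 2.72% of all tested genes wholly higher and 2.56% wholly lower in BaP mice, groups did not overlap for 1 dentate and 1 CA1 gene, which were higher in BaP mice, and for 1 CA3 gene, *Cldn5* among the endothelial genes (-0.57) and all 5 red blood cell genes, which were lower. The dentate gene, *Pdzd2*, and the CA3 gene, *Grik4*, had no value in control 1, so their separation leaves that mouse out.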
